A study of Mus musculus with 2 samples.

Results

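The miR-7 genes Mir7-1, Mir7-2 and Mir7b and the gene Mir671 are 4 of the 2202 annotated microRNA (miRNA) genes counted in mouse hippocampus. They were chosen by name, as the 3 sources of miR-7 and the gene whose product cleaves the circular RNA that binds miR-7. Both libraries come from 1 group: the hippocampus of female B6CASTF1/J mice, hybrids of C57BL/6J and a castaneus-derived strain, aged 2 months. The labels give a hippocampal layer as the tissue without saying which, and name no treatment and no second group. The libraries have separate tissue records, biological replicates 1 and 2, but share 1 donor record, so the spread between them may be partly technical. The genes Mir7j and Mir7k carry similar symbols but give let-7j and let-7k in the RefSeq table, so they are no members.

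A miRNA is processed from a hairpin with a 5p and a 3p arm, and pairs with target RNAs mainly through its seed, bases 2 to 8. miR-7 is known from neuroendocrine cells and from neurons, where it represses, among others, the mRNA of alpha-synuclein. Cdr1as is a circular RNA of neurons that binds miR-7 at many seed matches. miR-671-5p pairs along most of its length with Cdr1as and directs its cleavage, and the long non-coding RNA Cyrano pairs with both ends of miR-7 and directs the decay of miR-7. Neither Cdr1as nor Cyrano is a miRNA gene, so neither was counted here.

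All 4 members were found in the RefSeq miRNA table (build GRCm38.p6, which has the mm10 coordinates), where they give 7 distinct mature arms. These are shown because their shared and differing bases decide which gene a read can be given to and which sites it pairs with. Each runs 5′ to 3′, with the seed in capitals.
miR-7a-5p (Mir7-1 and Mir7-2): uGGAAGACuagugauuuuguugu
miR-7b-5p (Mir7b): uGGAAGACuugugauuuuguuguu
miR-7a-1-3p (Mir7-1): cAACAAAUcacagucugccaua
miR-7a-2-3p (Mir7-2): cAACAAGUcccagucugccaca
miR-7b-3p (Mir7b): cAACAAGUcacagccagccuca
miR-671-5p (Mir671): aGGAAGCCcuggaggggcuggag
miR-671-3p (Mir671): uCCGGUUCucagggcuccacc

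Among 1679 mature names in that table, only miR-7a-5p and miR-7b-5p carry the seed GGAAGAC. Counted from the 5′ end, miR-7b-5p differs from miR-7a-5p by A10U within their first 23 bases and is 1 base longer. The 3p arms differ more. From miR-7a-1-3p to miR-7a-2-3p there are 3 substitutions, A7G, A10C and U21C, of which A7G lies in the seed. The seed AACAAGU is shared by miR-7a-2-3p and miR-7b-3p. No other name in the table carries the seed of either arm of Mir671.

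Mir7-1 (ENSMUSG00000065434.1) lies on the minus strand at chr13:58392779-58392886, in an intron of Hnrnpk, which codes for an abundant RNA-binding protein. Mir7-2 (ENSMUSG00000065609.1), at chr7:78888277-78888373 on the plus strand, and Mir7b (ENSMUSG00000065491.1), at chr17:56242988-56243098 on the plus strand, overlap no other gene of GENCODE M21. The nearest protein-coding gene is Aen, 7481 bases from Mir7-2, and Fem1a, 13712 bases from Mir7b. Mir671 (ENSMUSG00000076387.1), at chr5:24592114-24592211 on the plus strand, lies within coding sequence of exon 4 of Chpf2, a chondroitin-synthesis gene. A retained-intron transcript of Smarcd3 overlaps it on the other strand.

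Mir7-1 and Mir7-2 share a stretch of 24 identical bases that holds the whole 5p arm. Of the 6 windows of 18 bases inside miR-7a-5p, 6 occur in both genes, whereas 0 of the 5 windows of either 3p arm occur in another miRNA gene. A read that lies within miR-7a-5p therefore maps to both genes, and the deposited counts give multimapping reads to no gene. The longest stretch shared with any other annotated miRNA gene was 14 bases for Mir7b and 13 bases for Mir671, and none of their 18-base windows recurred. The counts of Mir7-1 and Mir7-2 are thus those of their other reads and say little of the amount of miR-7a-5p. For Mir7b and Mir671, neither arm shared an 18-base window with another annotated miRNA gene. Matches elsewhere in the genome were not searched, so reads of these genes may be missing too. The counts are per gene, and the arms were not separated.

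**Figure D1:**
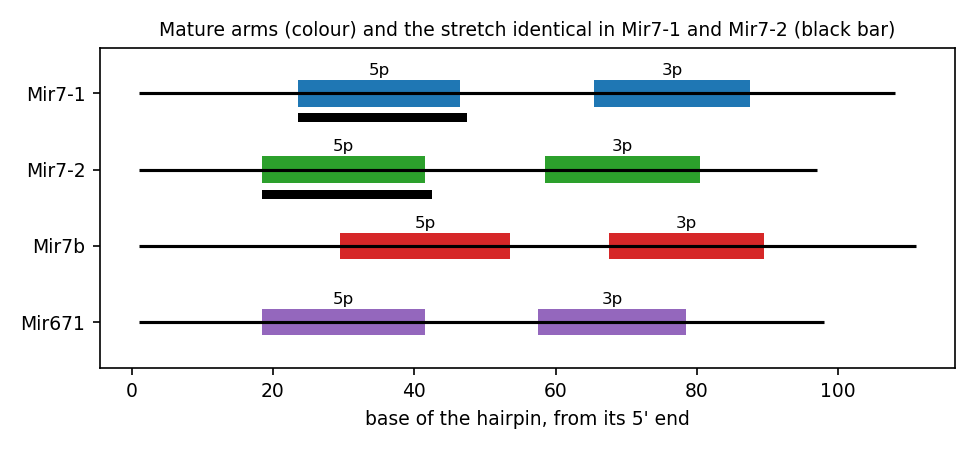
Each line is a hairpin, with the base counted from its 5′ end on the x axis, coloured boxes for the 5p and 3p arms and a black bar for the 24 bases that are identical in Mir7-1 and Mir7-2. The black bar covers the 5p arm of both genes, and no such bar is drawn for Mir7b or Mir671, whose longest shared stretches are 14 and 13 bases.

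The sites these miRNAs are known for can be read from the reference. The exon that forms Cdr1as is annotated as exon 6 of transcript C230004F18Rik-206, at chrX:61183248-61186174 on the plus strand, and is 2927 bases long. It holds 119 copies of GTCTTCC, the match to bases 2 to 8 of miR-7, and 0 on its other strand. Of these copies 30 are followed by A (GTCTTCCA, a longer form that contains the first motif), and 25 of the 30 lie in the first 731 bases. Of 118 pairs of neighbouring copies, 84 start 18 bases apart. In 12721 other genes with a transcript at least that long, 24.2% held GTCTTCC in the first 2927 bases of the longest transcript, the median was 0 and the most was 4. Of the 1398 distinct seeds in the RefSeq table, that of miR-7 had the most matches in the exon, and the next, that of miR-7074-5p with 74, overlaps the miR-7 match. The most frequent repeat, which ends in the seed match in capitals and occurs 20 times, is shown with the other sites:
Cdr1as repeat for miR-7: cgaaaatccaaGTCTTCC
Cdr1as site for miR-671-5p: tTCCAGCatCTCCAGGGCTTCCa
Cyrano site for miR-7: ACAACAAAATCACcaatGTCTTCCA
Capitals in the last pair of sequences mark bases complementary to the miRNA.

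The base at which miR-7a-5p and miR-7b-5p differ faces A in 98 of the 119 copies and T in 2, with C in 4 and G in 15. A pairs with the U of miR-7b-5p at position 10 and T with the A of miR-7a-5p. Over the first 23 bases, 98 sites pair at 1 more base with miR-7b-5p and 2 with miR-7a-5p, with medians of 14 and 13 paired bases. These are descriptions of letters, and binding was not measured.

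The exon holds 1 match to the seed of miR-671-5p (GGCTTCC), at chrX:61185939-61185961 together with its flanks. There, 19 of 23 bases of miR-671-5p pair, bases 2 to 14 in 1 run of 13, which includes positions 10 and 11 where Argonaute slices. Against the reverse complement of the site the miRNA differs by A1T, G15A, G16T and G23A, counted from its 5′ end, of which positions 15 and 23 form G:U pairs. In the longest transcripts of 55449 other genes, 30 genes hold a site with as many paired bases. The Cyrano site starts at base 2935 of the 8300 bases of transcript 1700020I14Rik-202, and joins 13 bases complementary to the 3′ end of miR-7a-5p to a seed match across 4 unpaired bases. The longest transcripts of 55450 genes were searched for an unbroken block of at least 10 such bases within 7 bases of a seed match. Only 1 gene held one, and it was this gene.

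**Figure D2:**
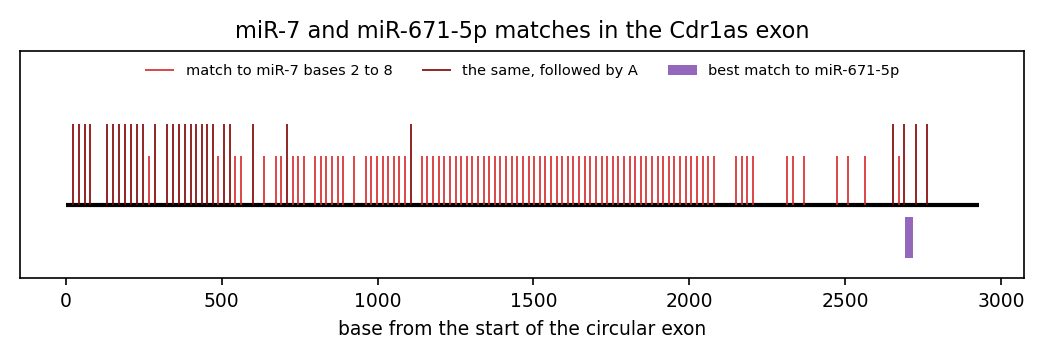
The x axis is the base from the start of the Cdr1as exon. Short lines mark the matches to bases 2 to 8 of miR-7, tall lines the 30 of the 119 that are followed by A, and the box below the line the best match to miR-671-5p, which starts at base 2692, near the end of the exon and beyond most miR-7 matches.

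Replicate 1 held 4517648 sense counts on miRNA genes and replicate 2 held 5979247, 38.7% and 36.7% of all their reads. Reads that map to several places made up 45.9% and 48.4%. Levels are given as CPM, a gene's sense counts per 1000000 of these totals. The 13 miRNA genes listed as markers of forebrain neurons summed to 48166 CPM in the first library and 52825 CPM in the second. Of these, 9 were tested as described for the members below, 3 were higher in replicate 2, 5 were lower and 1 did not pass, with a median log2 ratio of -0.05. Mir132, an activity-regulated neuronal miRNA, had 16627 and 24242 CPM, and without it the sum was 31539 and 28583 CPM. The Mir128, Mir138 and Mir9 genes of the list share mature arms among themselves, so the sums lack reads that match such genes equally. Mir124a-1, the highest of the Mir124a genes, had 13 and 9 counts. No mature arm was matched to the Mir124a symbols, so whether these genes share arms was not checked. Reads that match several of them equally would be missing, so these counts say little of the level of miR-124. Intervals below are at 95% and take in the error of counting alone, with reads taken as independent. Copies made by amplification are counted as separate reads, so the intervals may be too narrow even for that error. A read covers a whole mature arm, so CPM were not divided by length. The order of the members was the same per kilobase of hairpin.

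Mir7b was the most abundant member and gave most of the miR-7 reads that could be placed. Replicate 1 gave 11257 counts of it and replicate 2 gave 12660. These were 2492 CPM (Wilson interval 2446 to 2538) and 2117 CPM (2081 to 2154), a mean of 2305 ± 265 CPM (SD, n = 2), and Mir7b ranked 58 of the 2202 genes. Its level was higher in replicate 1, and the intervals of the libraries did not overlap. A difference beyond counting error was common among all genes at this depth, as the test below shows.

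Mir671, the source of the miRNA that cleaves Cdr1as, followed at rank 76. It had 7688 and 9031 counts, which were 1702 CPM (Wilson interval 1664 to 1740) and 1510.4 CPM (1480 to 1542), with a mean of 1606 ± 135 CPM (SD, n = 2). Replicate 1 was again the higher, without overlap of the intervals. Mir7b stood 1.46-fold above Mir671 in replicate 1 and 1.40-fold in replicate 2, a ratio that does not depend on the scaling. Reads of Chpf2 mRNA fragments at this exon, if any, cannot be told apart from those of Mir671 in these counts.

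Mir7-2 was the third member, with 1444 and 1190 counts. Its level was 319.6 CPM (Wilson interval 304 to 337) in replicate 1 and 199 CPM (188 to 211) in replicate 2, with a mean of 259 ± 85.3 CPM (SD, n = 2) and rank 157. As a ratio, its libraries lay further apart than those of the other members. Mir7-1 was the lowest, at rank 191, with 547 and 593 counts, or 121 CPM (Wilson interval 111 to 132) and 99.2 CPM (91.5 to 107), a mean of 110.1 ± 15.5 CPM (SD, n = 2). The 4 members kept the same order in both libraries, and no member's range over the libraries overlapped that of its neighbour in the order. No member had a read on the antisense strand in either library, where 0 counts allow up to 0.664 CPM in replicate 1 and 0.502 CPM in replicate 2. The column without regard to strand gave the same counts.

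**Figure D3:**
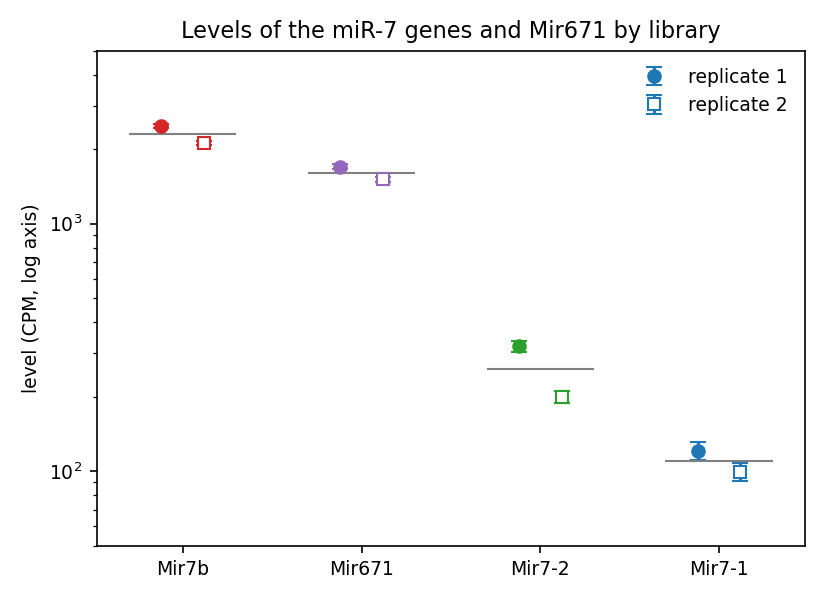
Levels in CPM on a log axis, with filled circles for replicate 1, open squares for replicate 2, bars for the 95% Wilson interval and a grey line for the mean. Mir7b at 2492 and 2117 CPM and Mir671 at 1702 and 1510.4 CPM lie well above Mir7-2 and Mir7-1, and replicate 1 is the higher library for each gene.

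Together the miR-7 genes held 0.267% ± 0.0366 (SD, n = 2) of the counts, 2933 CPM in replicate 1 and 2416 CPM in replicate 2. Mir7b supplied 85.0% of these counts in replicate 1 (Wilson interval 84.4 to 85.6) and 87.7% in replicate 2 (87.1 to 88.2). Mir7-2 supplied 10.9% (10.4 to 11.4) and 8.24% (7.80 to 8.70), and Mir7-1 4.13% (3.80 to 4.48) and 4.11% (3.79 to 4.44). The share of Mir7-2 was thus lower in replicate 2 and that of Mir7b higher, while the intervals of Mir7-1 overlapped. The odds of Mir7-2 against Mir7b were 1.36-fold higher in replicate 1 (Fisher's exact test on the reads, two-sided, adjusted p = 8.6e-14 over 2 comparisons). The odds of Mir7-1 against the other miR-7 genes did not pass (odds ratio 0.994, adjusted p = 0.928 by the same exact test). Because the reads of miR-7a-5p are missing from Mir7-1 and Mir7-2, these shares do not give the shares of the loci in mature miR-7.

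The libraries were then compared gene by gene. Each of the 420 genes that reached 10 counts in both libraries was set against the rest of the miRNA counts by Fisher's exact test, two-sided, with Benjamini-Hochberg adjustment over the 420. The test compares the reads of a pair of libraries and says nothing of a condition. All 4 members passed the threshold of 0.05 as lower in replicate 2. Of all genes tested, 29.8% passed as lower in replicate 2 and 56.9% passed in either direction, so passing was common at this depth. It was more common still among genes with counts nearer those of the members. With a minimum of 100 counts, 200 of 270 genes passed, 107 of them as lower in replicate 2. On the log2 scale, of CPM + 0.5, Mir7-2 was lower by 0.68 in replicate 2, Mir7-1 by 0.29, Mir7b by 0.23 and Mir671 by 0.17.

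For Mir7-2 replicate 1 was 1.61-fold higher (95% interval 1.49 to 1.74, adjusted p = 3.1e-33 by Fisher's exact test), more than for any other member. For Mir7-1 it was 1.22-fold higher (1.08 to 1.37, adjusted p = 0.0018 by the same exact test), and for Mir7b 1.18-fold (1.15 to 1.21, adjusted p = 1.8e-35). Mir671 was the closest between the libraries, at 1.13-fold (1.09 to 1.16, adjusted p = 5.4e-14 by the exact test). The median log2 ratio of the members was -0.26, beside -0.07 over all 420 genes, of which 238 were lower in replicate 2.

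In size, the differences of 3 members were ordinary for this pair of libraries. The median gene of the 420 differed by 0.30 on the log2 scale in either direction, and 217 genes differed by more than Mir7-1, 246 by more than Mir7b and 286 by more than Mir671. By contrast, 89 differed by more than Mir7-2. Among the 62 tested genes within 2-fold of the mean level of Mir7-2, 11 differed by more, and among the 57 near Mir671, 40 did. The common spread between the libraries, estimated with edgeR over the tested genes, was a coefficient of variation of 31.2%. The members' own values, SD over mean of the CPM, were 32.9% for Mir7-2, 14.1% for Mir7-1, 11.5% for Mir7b and 8.43% for Mir671. These include counting error, which the edgeR value sets apart, so they are not the same measure.

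**Figure D4:**
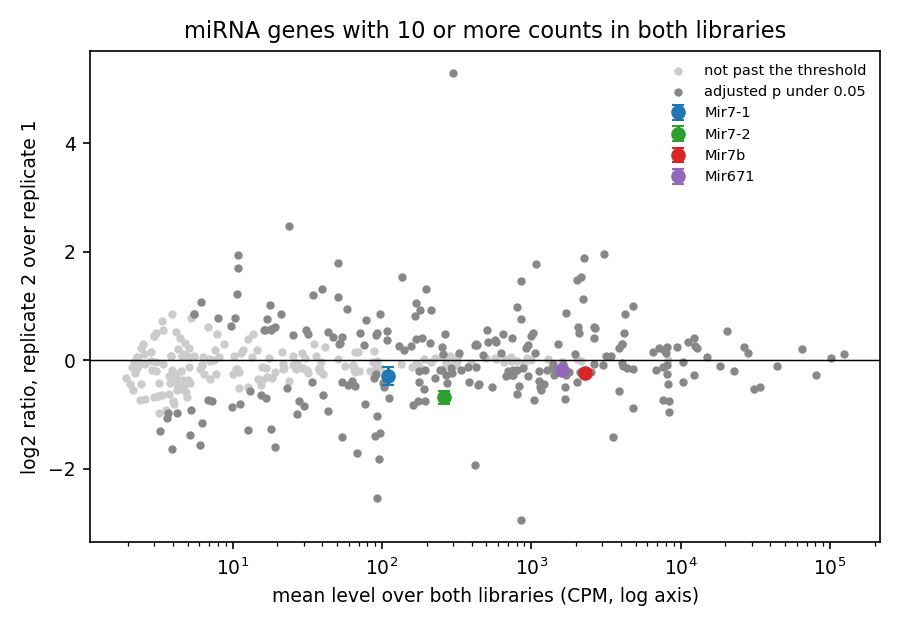
The log2 ratio of replicate 2 over replicate 1 against the mean level in CPM on a log axis for the 420 genes tested, with dark grey for an adjusted p under 0.05, light grey for the rest and coloured points with 95% exact binomial intervals for the members. All 4 members lie below 0, from -0.17 for Mir671 to -0.68 for Mir7-2.

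Markers of other cell types that also differed between the libraries are given beside the members. Of the 6 markers of pituitary, islet and other endocrine cells, where miR-7 is known to be abundant, 5 were lower in replicate 2 and 1 was higher by the same test, and none was at 0. They summed to 627 CPM in the first library and 387 CPM in the second. The 5 lower ones, Mir141, Mir200a, Mir200b, Mir200c and Mir429, are all of the miR-200 family, which is found in epithelia of many kinds, and Mir200c had 158 and 26.9 CPM. The islet and pituitary miRNA Mir375 was the 1 higher, at 245 and 268 CPM. Of 7 markers of sensory and hindbrain tissue, 5 were tested, 4 were lower and none was higher. Mir196a-1 was at 0 in both libraries, and the summed level was 284 and 108 CPM. The choroid plexus list summed to 1474 and 2001 CPM and the red cell list to 95.4 and 142 CPM, with 2 of 3 genes of each passing as higher in replicate 2. Of the oligodendrocyte miRNAs, Mir219a-2 was higher in replicate 2, at 2256 and 2990 CPM, and Mir338 was lower, at 4269 and 3984 CPM. Mir219a-2 and Mir219a-1 give an identical mature arm, so reads that match both equally are missing from the Mir219a-2 level. The endothelial miRNA Mir126a was higher, at 11285 and 13591 CPM. Of the pair listed for mural cells, Mir143 was higher, at 7618 and 8430 CPM, and Mir145a did not pass, at 319.9 and 303.6 CPM. Of the 4 genes listed for microglia and leukocytes, the lymphocyte miRNA Mir150 was higher, at 1009 and 1115 CPM, and 3 did not pass. The part of these cells in the lower Mir7-2 of replicate 2 was not tested, and in whole tissue fewer cells of a type and less RNA per cell cannot be told apart.

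The neuroendocrine list, miRNAs often found with miR-7, takes in the 6 endocrine markers. Of its 15 genes 11 were tested, 7 were lower in replicate 2, 3 were higher and 1 did not pass, with a median log2 ratio of -0.93, and 5 of the 7 lower ones were the miR-200 family genes above. Without the endocrine markers, 5 of 9 genes were tested, of which 2 were lower, 2 were higher and 1 did not pass, with a median log2 ratio of -0.07. Mir153, which like miR-7 is known to repress alpha-synuclein, was lower in replicate 2, at 175 CPM against 668 CPM. Mir129-2 was the other lower one, at 1054 CPM against 1214 CPM, and Mir129-1 did not pass. These genes give an identical mature arm, so reads that match both equally are missing from their counts. Mir9-3, of the neural miR-9 family, was higher in replicate 2, at 108.7 CPM against 75.9 CPM. Mir9-1 of the same family was higher too, at 16.9 CPM against 4.87 CPM. The 3 miR-9 genes give the same mature arms in the RefSeq table, so their counts lack the reads that match all of them equally.

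The other miRNAs known to be lowered by target-directed decay, the process that Cyrano sets off for miR-7, are given for comparison. All 7 were tested, of which 2 were higher in replicate 2, 2 were lower and 3 did not pass, with a median log2 ratio of -0.01. Mir30b (118 and 142 CPM) and Mir29b-2 (68.8 and 83.6 CPM) were the higher ones. Mir30c-2 (267 and 235 CPM) and Mir29b-1 (71.5 and 55.0 CPM) were the lower ones. Mir322, the most abundant of them, stood at 734 and 727 CPM, well below Mir7b in both libraries. In the RefSeq table Mir29b-1 and Mir29b-2 give the same 3p arm, and Mir30c-1 and Mir30c-2 the same 5p arm. Reads that match both genes of a pair equally were given to neither, so the counts of these 4 genes, 3 of which passed the test, say little of the level of those arms.

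Mir7-1 and Mir7-2 are 1 of 38 pairs of genes in the tables that give an arm identical to that of 1 other gene. In 10 pairs neither gene had a count, and in 21 each gene reached 10 counts in each library. Among these 21 the higher gene stood 1.21-fold to 301-fold above the lower, with a median of 5.10-fold. Mir7-2 stood 2.35-fold above Mir7-1, 2.64-fold in replicate 1 and 2.01-fold in replicate 2, and 14 pairs had a larger fold and 6 a smaller one. The most abundant pair, Mir128-1 and Mir128-2, differed 4.67-fold, Mir138-1 and Mir138-2 1.91-fold, and Mirlet7f-2 and Mirlet7f-1 16.2-fold. In such pairs the reads of the shared arm are missing from both genes, so the folds are those of the reads that could be placed. The log2 ratios of Mir7-1 and Mir7-2 between the libraries lay 0.40 apart, beside a median gap of 0.22 over the 21 pairs, and 6 pairs had a larger gap.

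**Figure D5:**
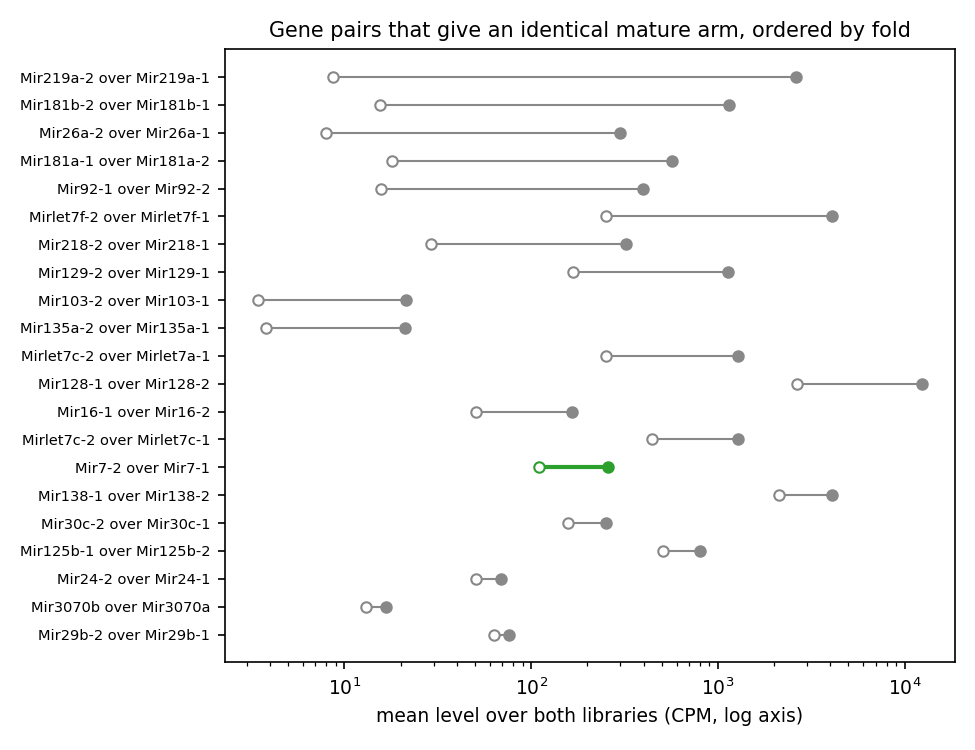
Each row is 1 of the 21 pairs of genes that share a mature arm, with the mean level in CPM on a log axis, a filled circle for the higher gene and an open circle for the lower. The Mir7-2 and Mir7-1 pair, in green, spans 2.35-fold, between the 1.21-fold of the Mir29b genes and the 301-fold of the Mir219a genes.

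The genes closest to each member in both libraries were found by the distance in log2(CPM + 0.5) over the 2 libraries, which is a likeness of level more than of pattern. For Mir7b they were Mir138-2, at 2273 and 1973 CPM, then Mir369 and Mir320. For Mir671 they were Mir181d, at 1663 and 1590.0 CPM, then Mir874 and Mir154. For Mir7-2 they were Mir7080, Mir543 and Mir1981, and for Mir7-1 Mir490, Mir3072 and Mir374b. The distances ran from 0.08 for Mir181d to 0.34 for Mir1981.

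The members had few miRNA genes beside them. Within 1 Mb of Mir7-1 lay Mir6369, 79735 bases away and without a count, and Mir874, 369654 bases away. The 1613 and 1581 CPM of Mir874 were higher than those of Mir7-1. They did not pass the test between the libraries (adjusted p = 0.291 by Fisher's exact test). Within 1 Mb of Mir7-2 lay Mir9-3, 616987 bases away, which was higher in replicate 2 where Mir7-2 was lower. Gm44358, 861734 bases from Mir7-2, had no count. The 3 miRNA genes within 1 Mb of Mir7b had at most 7 counts in a library, and the 1 near Mir671 had none.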

How the data were processed

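MicroRNA sequencing of 2 libraries of 1 group was used. Per the deposited notes, the authors made 1 table of read counts per library on mm10 with GENCODE M21. The counts are raw; aligner and counter: not given in the sources used here. The tables hold 3 columns without names, read from their values as unstranded, sense and antisense, and the sense column was used. Reads given to no gene stayed out of library sizes. All 2202 identifiers matched GENCODE M21. Sites were searched in GENCODE transcripts, mature arms come from RefSeq.

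With 1 group, edgeR's quasi-likelihood test has no contrast, so Fisher's exact test (scipy 1.17.1) was used, for genes with 10 counts or more in each library, with a pseudocount of 0.5 CPM and a threshold of 0.05. With other scalings an exact binomial test took its place. The test was checked on counts simulated with counting error alone, which is what it assumes. That check does not cover the further spread between these libraries. edgeR 4.0.16 gave TMM factors and the spread, and DESeq2 1.42.0 size factors. The members, lists and rule for named genes (the members, the lists, up to 6 gene pairs and the 3 nearest genes per member) were chosen with earlier results of these data known. Mir7j and Mir7k were named after their symbols were seen. The alternatives were other scalings, denominators, filters, pseudocounts, the unstranded column, a thinned library and leaving out each replicate.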

Additional observations from a re-analysis of the deposited data

How the results depend on the processing

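The log2 ratios of the 4 members stayed below 0 and past the threshold in each of the 11 alternatives run for the ratio. They ranged from -0.74 to -0.64 for Mir7-2, from -0.30 to -0.24 for Mir7-1, from -0.24 to -0.19 for Mir7b and from -0.18 to -0.13 for Mir671. Not every alternative could move the result: the filters cannot change a ratio, and the pseudocounts cannot change the test. The unstranded column held the same counts of the members and changed only the totals. The highest adjusted p was 0.0091, for Mir7-1 (Fisher's exact or exact binomial test). The number of genes that passed ranged from 200 at a minimum of 100 counts to 244 at a minimum of 1. With all reads as the denominator, Mir7b stood at 871 CPM, Mir671 at 607, Mir7-2 at 98.4 and Mir7-1 at 41.7 per 1000000 reads. Without the most abundant gene in the denominator, Mir7b stood at 2629.95 CPM, Mir671 at 1833 and Mir7-1 at 125.7. Both follow from the smaller or larger total. With 1 replicate left out, levels ranged from 2117 to 2492 CPM for Mir7b, from 1510.4 to 1702 CPM for Mir671, from 199 to 319.6 CPM for Mir7-2 and from 99.2 to 121 CPM for Mir7-1, with no ratio to test. With 547 to 12660 counts behind each value, the Wilson interval of each library was narrower than the difference between the libraries for each of the 4 members. Such separation is not particular to them, since 200 of the 270 genes with a minimum of 100 counts passed the test.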
